A study of Mus musculus with 134 samples.

Results

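The cells described here were 384 single mouse embryonic stem cells, each the daughter of a cell that had held 1 bead coated with the ligand Wnt3a, with 192 proximal and 192 distal to the bead. They were the cells whose nuclei received the H3K27me3 antibody in single-cell same cell epigenome and transcriptome sequencing (scSET-seq), and their cytoplasmic RNA was counted per gene. Of them, 335 had more than 1000 and fewer than 5000 genes with a count. Position came from the plate map in the supplement of the study. Counts were summed over the cells of 1 experiment and 1 position where both positions had 3 or more cells, which left out experiment 2 and kept 327 cells, 165 proximal and 162 distal, of the 752 single cells of the series. The 18 sums came from 9 experiments, and proximal was compared with distal within experiments.

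All cells were of the line E14 (ES-E14TG2a) from strain 129/Ola, grown on gelatin in serum with leukemia inhibitory factor (LIF). Proximal and distal cells shared the medium, the bead and the time of about 12 h since seeding, and no cell grown without a bead entered the comparison. Single cells were picked with a mouth pipette, and cDNA made from poly(A) RNA was cut and indexed by Tn5. The question of the comparison was which genes differ between the daughter at a local Wnt source and the one away from it.

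Wnt ligands bind Frizzled receptors and the co-receptors Lrp5 and Lrp6 at the cell surface. This stops the complex of Axin, Apc and Gsk3 from marking beta-catenin for destruction, and beta-catenin then works with Tcf and Lef factors on target genes, among them the feedback genes Axin2, Sp5 and Znrf3. In mouse embryonic stem cells, Wnt signals and LIF support the naive pluripotent state, with Nanog, Zfp42, Klf4 and Esrrb as its marks, while polycomb repressive complex 2 (PRC2) places H3K27me3 on genes that are kept silent.

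Position and library index could not be told apart. All 192 proximal cells lay in odd columns of the plates and all 192 distal cells in even columns, and the column set the i7 index. Sums held between 3 and 32 cells and between 54144 and 15434438 counts. Genes with a count in a sum numbered between 4824 and 11795.

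The 384 cells carried 96 index pairs, 1 for each well of a plate, and an index pair was used in 1 to 6 experiments. Cells of different experiments in the same well had related counts. After the mean of each experiment was removed, the median Pearson's r between same-well cells was 0.10 to 0.39 in 12 pairs of experiments, all of them within 3 sets (experiments 1 to 3, 4 to 6, and 7 to 10). It was -0.02 to 0.02 in the 15 pairs of experiments from different sets that shared wells. Cells in other wells of the same position gave medians between -0.06 and 0.00 within the sets. The plot of r by pair of experiments shows the 3 sets as blocks. r is over the 3705 genes tested, which are not independent replicates, and is given as a description.

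**Figure D1:**
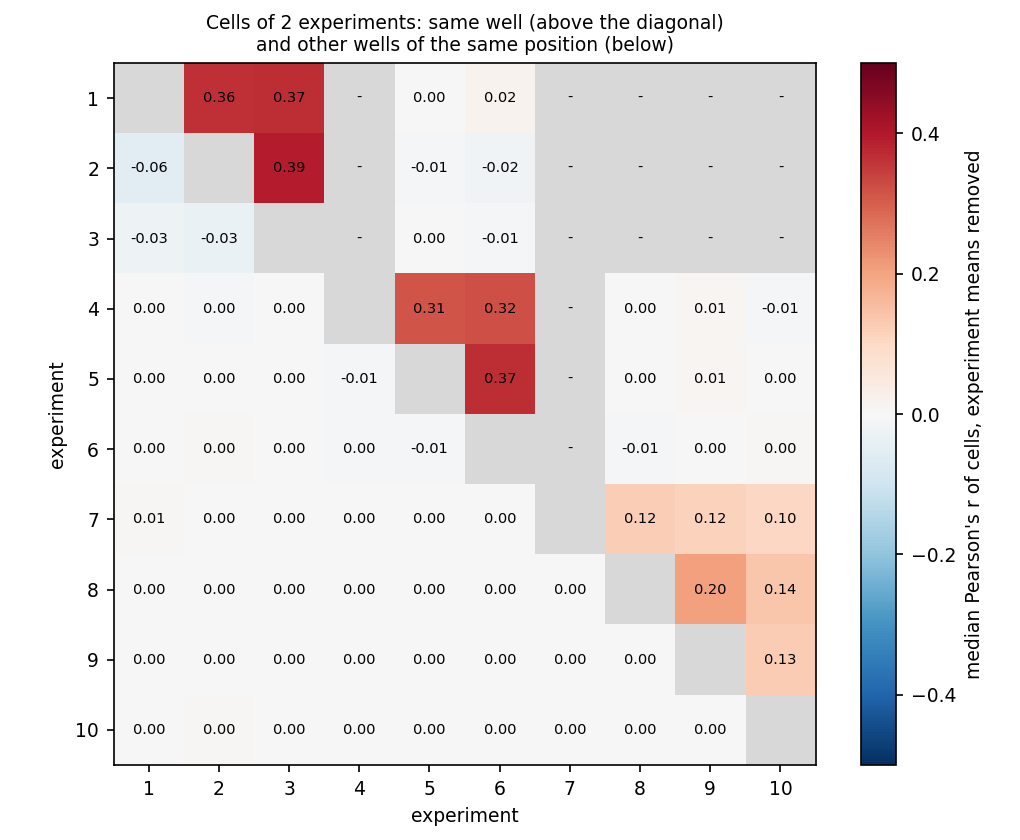
Median Pearson's r between single cells of 2 experiments (axes, experiment numbers), on log2(CPM + 1) over the genes tested with each experiment's mean removed; above the diagonal are cells in the same well, below it cells in other wells of the same position, and grey fields with a dash share no well. Same-well values of 0.10 to 0.39 lie only within experiments 1 to 3, 4 to 6 and 7 to 10, and every value for other wells is near 0.

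Genes with more than 50% of their counts in 1 cell showed the same relation. In the 506 genes of this kind, the same-well cells of the other experiments of the set held a count in 96.5% of 718 cases, against 22.1% for other wells of the same position in the set. Against cells of the other sets it was 34.7% for the same well and 27.3% for other wells. Ash2l, a subunit of H3K4 methyltransferases, had 194888 of its 198835 counts in 1 distal cell of experiment 10, and another 738 counts in the same well of the other experiments of that set. Same-well cells always had the same position. So the experiments within a set were not independent in their counts, p-values over 9 experiments treat them as if they were, and values over the 3 sets are given beside the main results below. How the counts came to be shared was not tested.

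Experiments 8 to 10 stood apart in a second way. The summed level of the stem cell markers in the table (7 genes, Pou5f1, Nanog, Zfp42, Dppa5a, Utf1, Tdgf1 and Lin28a) was 641 to 3593 CPM (a gene's counts scaled to a library of fixed size) in the 12 sums of experiments 1 and 3 to 7 and 2.54 to 34.7 CPM in the 6 sums of experiments 8 to 10, with Pou5f1 at 0 in all 6. Sox2 was not analysed here. Markers of primitive endoderm, fibroblasts and trophoblast summed to at most 25.6, 6.92 and 10.9 CPM there, and 2-cell-like markers to 0. The 165 cells of experiments 8 to 10 thus carried the label of embryonic stem cells with its defining transcripts at or near 0. Whether their columns hold reads of the same kind of library as the other experiments was not tested, which limits every value of experiments 8 to 10. Main results are given with and without them.

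Sums of the 2 positions of 1 experiment were more alike than sums of 1 position from different experiments. On log2(CPM + 1), Pearson's r between proximal and distal of the same experiment was 0.61 to 0.84 in experiments 1 and 3 to 7. Between experiments it was 0.15 to 0.71 for the same position and 0.12 to 0.66 for the other position, with medians of 0.43 and 0.42. The ranges for the same and the other position overlap almost fully, and position gave no visible grouping of these 12 sums. In experiments 8 to 10 the ranges did not overlap, with 0.78 to 0.81 for the same and 0.70 to 0.76 for the other position (6 pairs each). These experiments share counts between same-well cells, which always had the same position, and the part of this in the difference was not tested. Sums of experiments 8 to 10 correlated with each other at 0.70 to 0.91 and with experiments 1 to 7 at -0.29 to 0.39.

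**Figure D2:**
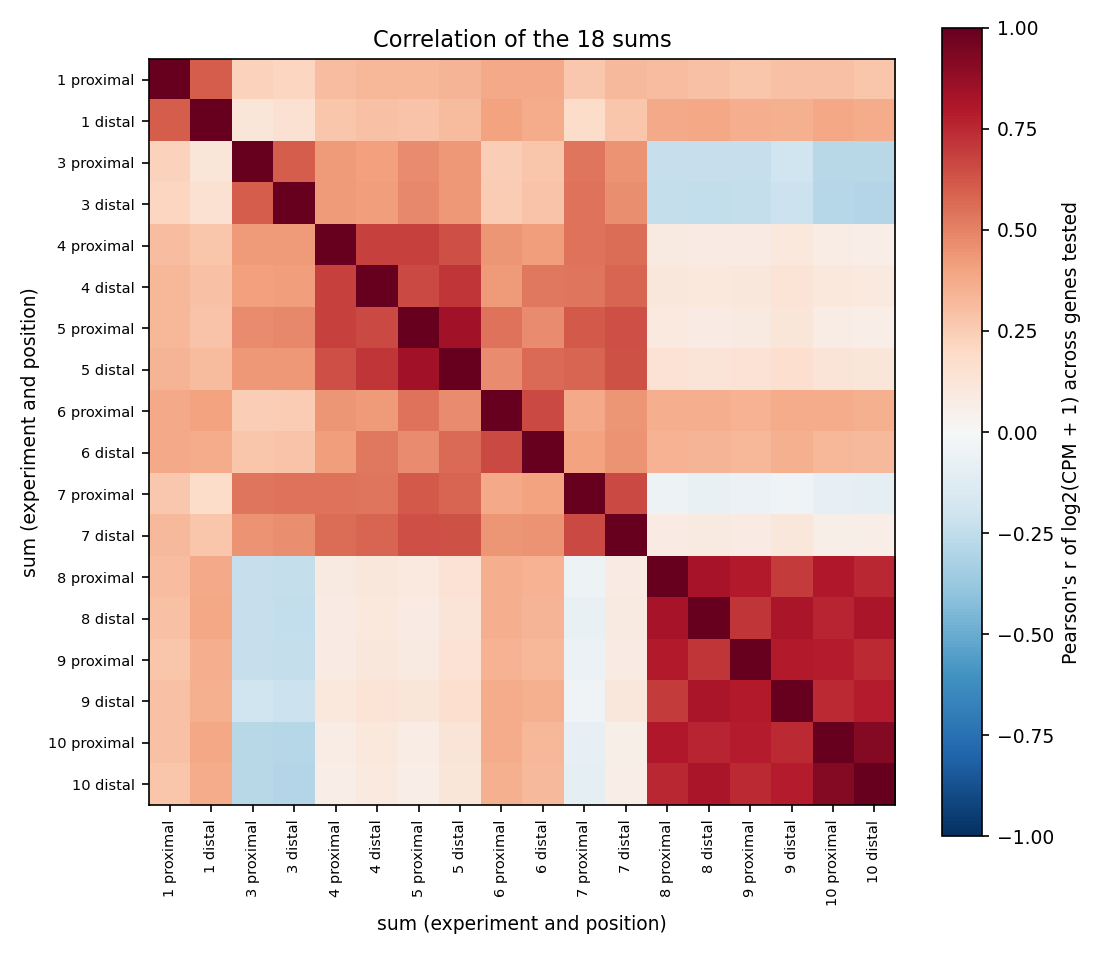
Pearson's r of log2(CPM + 1) across the 3705 genes tested, between all 18 sums (rows and columns, experiment number and position). Experiments 8 to 10 form a block with r of 0.70 to 0.91, and in experiments 1 to 7 the highest values, 0.61 to 0.84, include the pairs of positions within an experiment.

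Sister cells resembled each other slightly more than other proximal and distal cells did. The median r of sisters, taken as neighbouring wells, was above the median of other proximal and distal pairs in 9 of 9 experiments, which were not independent within sets. Pairs of distal cells lay above sisters in experiment 1 (0.74 against 0.69, with 2 sister pairs) and experiment 7 (0.50 against 0.48). The medians of sisters were 0.43 to 0.74 in experiments 1 and 3 to 7 against 0.39 to 0.70 for other pairs, and 0.85 to 0.89 against 0.83 to 0.88 in experiments 8 to 10. Sisters also shared a plate row and hence the i5 index.

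No gene differed between proximal and distal cells after correction for multiple tests. edgeR's quasi-likelihood test with the experiment as a block called 0 of 3705 genes at an adjusted p below 0.05 (0.0%), and the lowest adjusted p was 0.23, that of Eipr1. Standard errors of single genes were often near or above 1 on the log2 scale, so a p that misses the threshold does not show that the positions were alike. At an unadjusted p below 0.05 there were 112 genes (3.02%), 82 higher in proximal cells (2.21%) and 30 higher in distal cells (0.81%). CPM values, and the directions counted from them, leave out the normalization factors (TMM) that the edgeR fits use. These factors were 3.19 for proximal and 2.26 for distal cells of experiment 4. A direction with close CPM values can therefore depend on the normalization.

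Other processing left this result in place for edgeR and limma with the filter on low counts, but not for DESeq2. Without experiments 8 to 10, edgeR called 0 of 4633 genes, with 207 at an unadjusted p below 0.05 (4.47%). Of these, 58 were higher in proximal (1.25%) and 149 in distal cells (3.22%), the reverse of the split over 9 experiments, and the median of all genes moved from -0.04 to -0.33. Summed into the 3 sets, 0 of 6734 genes passed, with 181 at an unadjusted p below 0.05 (2.69%), of which 79 were higher in proximal (1.17%) and 102 in distal cells (1.51%). The 3 sets without experiments 8 to 10 gave 0 of 7189, with 158 at an unadjusted p below 0.05 (2.2%), 71 higher in proximal (0.988%) and 87 in distal cells (1.21%). The direction of the split thus changed with the experiments used and with how they were summed.

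limma on the mean log2 level per cell called 0 of 3705, with 241 at an unadjusted p below 0.05 (6.5%), 81 higher in proximal (2.19%) and 160 in distal cells (4.32%). DESeq2 called 58 of 3705 genes (1.57%), 41 higher in proximal (1.11%) and 17 in distal cells (0.459%). Without experiments 8 to 10 it called 146 (3.15%), 69 higher in proximal (1.49%) and 77 in distal cells (1.66%). On the 3 sets it called 385 of 6734 (5.72%), 158 higher in proximal (2.35%) and 227 in distal cells (3.37%). edgeR with no filter called 11 of 17051 genes (0.0645%), with 1216 at an unadjusted p below 0.05 (7.13%).

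The genes that DESeq2 called rested on few cells. Of the 58, 35 (60.3%) had more than 50% of their counts in 1 cell, against 506 of all 3705 genes (13.7%). The median gene tested had a count in 137 of the 327 cells and 21.8% of its counts in its top cell. For the 58 genes these medians were 77.5 cells and 69.1%. No such shares were taken for the DESeq2 calls without experiments 8 to 10 or over the 3 sets. In experiments 8 to 10 alone, edgeR called 1 of 3004 genes (0.0333%), Ash2l, whose single cell is described above, with 173 at an unadjusted p below 0.05 (5.76%), 103 higher in proximal (3.43%) and 70 in distal cells (2.33%). The plot of all genes shows that genes with large fold changes tended to have a high share of their counts in 1 cell.

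**Figure D3:**
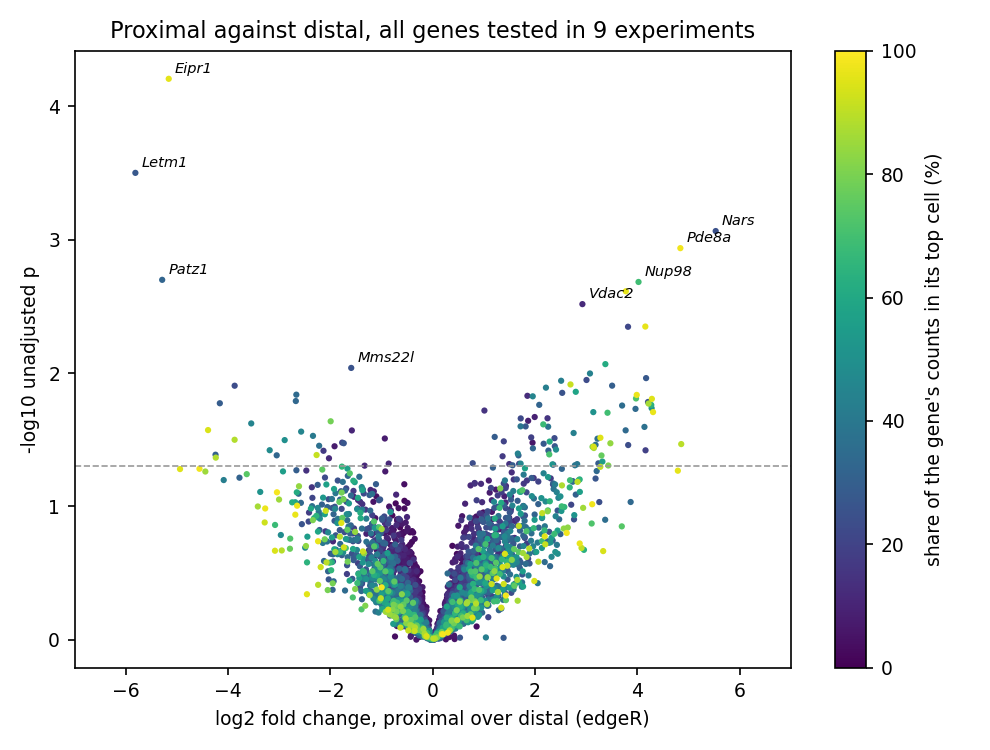
Each point is 1 of the 3705 genes tested, with the log2 fold change of proximal over distal on the horizontal axis and -log10 of the unadjusted p of edgeR on the vertical axis; colour gives the share of the gene's counts in its top cell and the dashed line an unadjusted p of 0.05. No gene passes correction, and 35.4% of the 82 genes above the line on the proximal side have over 50% of their counts in 1 cell.

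Depth and gene number gave no difference that passed the test. The mean of the median counts per cell was 17.18 (log2) in proximal and 17.28 in distal cells, a difference of -0.11 ± 0.30 (SD, n = 9), with an exact sign-flip permutation p of 0.352 (two-sided, adjusted p = 0.703 over 4 quantities). Genes per cell differed by -0.12 ± 0.26 on the log2 scale (exact permutation p = 0.281, adjusted p = 0.703). In experiments 1 and 3 to 7 distal cells had more genes in 6 of 6 experiments, by 0.23 (exact permutation p = 0.0313, adjusted p = 0.125), and over all 3 sets distal cells had more genes in each set, where 0.25 is the smallest p that can be reached. The share of cells within the gene limits was 86.0% proximal and 85.1% distal, and Rn45s, a ribosomal RNA precursor, took 4.71% and 4.80% of the counts, with adjusted p of 0.856 for both by the same exact permutation test.

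Nanog was lower in proximal than in distal cells in the summed counts of each of the 3 sets, without passing the test. This homeobox factor of naive pluripotency lies at chr6:122657507-122664651 (mm9, plus strand). In experiments 1 and 3 to 7 its level was 62.1 to 286 CPM in proximal sums (median 129) and 42.8 to 592 CPM in distal sums (median 332). The ranges overlap, and distal was higher in 4 of 6 experiments. Proximal was higher in experiments 4 (148 against 42.8 CPM) and 5 (91.0 against 86.1 CPM), both of set 2. The summed counts of set 2 came mostly from experiment 6. In set 1, set 2 and experiment 7 it was 166, 110 and 250.0 CPM in proximal and 528, 181 and 488 CPM in distal cells. In experiments 8 to 10 it was at most 0.639 CPM. The edgeR estimate was -0.99 ± 0.60 (log2 fold change ± SE, unadjusted p = 0.126, adjusted p = 0.999), over the sets -1.41 ± 0.50 (unadjusted p = 0.0525, adjusted p = 1) and over the sets without experiments 8 to 10 -1.14 ± 0.93 (unadjusted p = 0.243). Of all genes tested, 12.3% were higher in distal cells in each of the 3 sets, and 14.5% without experiments 8 to 10.

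Zfp42, Klf4 and Esrrb had estimates on the proximal side, also without passing. Zfp42, a zinc finger mark of naive cells, was 148 to 1318 CPM in proximal (median 219) and 25.7 to 383 CPM in distal sums (median 136) of experiments 1 and 3 to 7. Proximal was higher in 5 of 6 experiments, with distal higher in experiment 7, and the log2 fold change was 0.95 ± 0.65 (unadjusted p = 0.172) and 0.31 ± 0.87 over the sets. Summed over sets, proximal was higher in set 1 (1020 against 258 CPM) and set 2 (156 against 130 CPM) and lower in experiment 7 (282 against 383 CPM).

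Klf4, a Krüppel-like factor downstream of LIF, had a log2 fold change of 2.44 ± 1.38 (unadjusted p = 0.107), yet its set 1 sums were 246 CPM in proximal and 371 CPM in distal cells. Esrrb, an orphan nuclear receptor, had 1.13 ± 0.90 (unadjusted p = 0.232) and 0.96 ± 1.02 over the sets. Tbx3 stood at -0.93 ± 1.04, and 61.8% of its 1869 counts were in 1 cell. Pou5f1 had 1774 counts in 31 of the 327 cells, with 76.6% of them in 1 cell, and did not pass the filter on low counts.

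Shares of cells with a count were compared after thinning to 20000 counts. Only cells with at least 20000 counts entered, which left out 44 passing cells, and the shares before thinning are of the same cells. In experiments 4 and 5 the median counts per cell, 7439 to 18824, lay below that limit. The shares pool cells over experiments and were not compared within them. They therefore also depend on how many cells of each experiment were kept at each position. Nanog had a count in 36.4% of 55 proximal and 42.2% of 64 distal cells of experiments 1 and 3 to 7 (60.0% and 68.8% before thinning), and Zfp42 in 40.0% and 39.1% (69.1% and 68.8% before). Jarid2 had a count in 50.9% and 68.8% (90.9% and 95.3% before), and Ctnnb1 in 18.2% and 28.1% (50.9% and 48.4% before). In experiments 8 to 10, 0 of 85 proximal and 0 of 79 distal cells held a Nanog count after thinning. Fewer cells with a transcript and fewer transcripts per cell cannot be told apart in the sums.

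The pluripotency lists held members on both sides. Of 19 naive pluripotency genes with a row, 12 were tested and 0 passed, with 7 estimates positive and a median of 0.27, against -0.04 over all genes. Without experiments 8 to 10 the median was -0.41 over 15 genes against -0.33 over all genes, and over the 3 sets -0.18 over 16 genes against -0.06, and -0.89 over 17 genes against -0.26 when experiments 8 to 10 were left out of the sets. The end members were Klf4 and Fbxo15, an F-box protein of naive cells at -1.03 ± 0.78. The Fbxo15 level was higher in distal cells in 6 of 6 experiments from 1 to 7, as in 2.65% of all genes tested. It was named for its low estimate, so this direction is a description. Of 11 core pluripotency genes 6 were tested with 0 passing and a median of -0.62, from Utf1 (0.93) to Sall4 (-2.08), and 89.8% of the Sall4 counts were in 1 cell of experiment 8. Without experiments 8 to 10 the median turned to 0.13 with 5 of 9 positive, and over the sets it was -0.68, or 0.00 without those experiments.

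**Figure D4:**
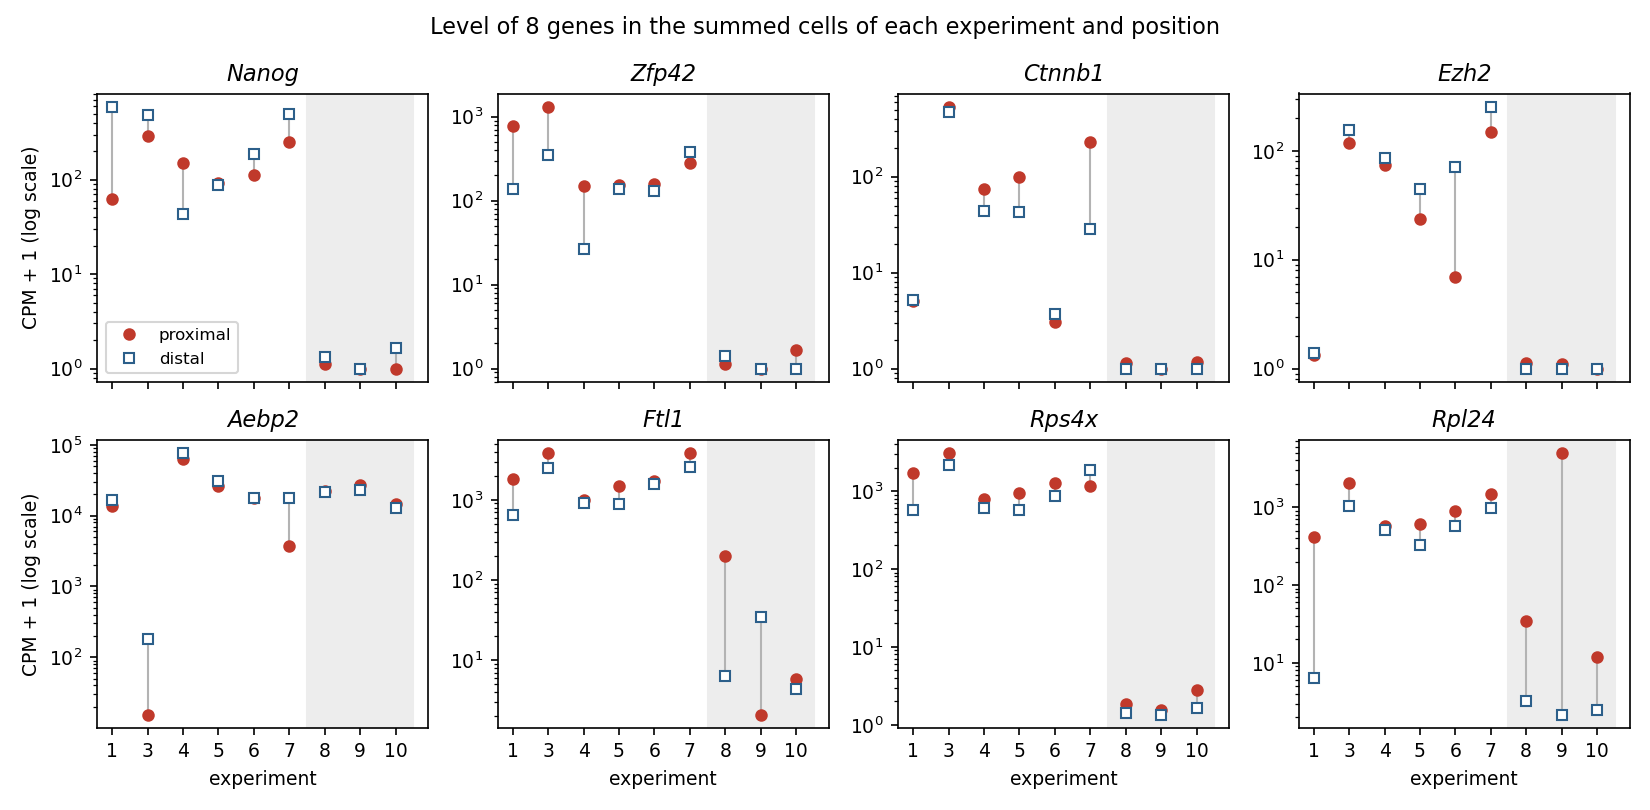
CPM + 1 on a log scale (vertical axis) of 8 genes in the proximal (filled red) and distal (open blue) sum of each experiment (horizontal axis), with experiments 8 to 10 shaded and no error bars because each point is 1 sum. Nanog, Zfp42, Ctnnb1, Ezh2 and Rps4x drop to near 0 in experiments 8 to 10, whereas Aebp2 stays between 12730 and 27350 CPM there.

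Most Wnt feedback and target genes had few counts. Of 17 feedback and target genes with a row, 2 were tested, Znrf3 and Nkd1. Axin2, a scaffold of the destruction complex and a widely used readout, had 16 counts in 5 cells, 2 proximal and 3 distal. Sp5 had 77 counts in 8 cells and Tcf7 28 counts in 12 cells. Lef1 had 902 counts, 98.0% of them in 1 proximal cell. At these counts a difference between positions was not detectable. Nkd1, by contrast, had 11733 counts in 131 proximal and 126 distal cells.

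Znrf3, an E3 ligase that removes Frizzled from the membrane, had the lowest p of the Wnt list. In experiments 1 and 3 to 7 it was higher in proximal cells in 5 of 6 experiments, with 84 against 4 counts in experiment 7 and 185 against 8 in experiment 6. Experiment 3 went the other way, with 2 against 8 counts. The log2 fold change was 1.66 ± 0.73 (unadjusted p = 0.0401, adjusted p = 0.999), and 43.9% of its 408 counts were in 1 cell. Over the sets it was 1.77 ± 1.41 (unadjusted p = 0.284), or 3.12 ± 2.84 without experiments 8 to 10 (unadjusted p = 0.294), and set 1 was lower in proximal cells at 0.549 against 0.970 CPM. Nkd1, which binds Dishevelled, was at 0.08 ± 0.45. The summed level of the list was higher in proximal cells in 7 of 9 experiments, with medians of 310 CPM in proximal and 160 CPM in distal sums of experiments 1 and 3 to 7. By set it was higher in 2 of 3, with set 3 at 146 against 148 CPM and experiment 7 at 282 against 292 CPM. In experiment 6 it was 824.5 against 660.8 CPM, of which Lef1 gave 81.6 against 0.253 CPM.

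Receptors and the beta-catenin complex showed no member past the test. Of 13 receptor genes 5 were tested, from Ryk, a Wnt-binding kinase-like receptor, at 1.41 ± 0.69 (unadjusted p = 0.0638) to Lrp5 at -0.93 ± 1.38. Lrp6, the co-receptor, stood at -0.67 ± 0.91 on 88 counts in all. The summed level of the receptor list was higher in proximal cells in 3 of 3 sets. It was 412 against 308, 207 against 205 and 33.6 against 24.6 CPM in set 1, set 2 and set 3. By experiment it was higher in proximal cells in 6 and in distal cells in 3. The estimates of the receptor genes had a median of 0.66 with 3 of 5 positive, against -0.04 over all genes. Over the sets the median was -0.24 with 3 of 6 positive, against -0.06. Over the sets without experiments 8 to 10 it was 0.05 with 5 of 6 positive, against -0.26.

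Ctnnb1, which encodes beta-catenin, was at most 537 CPM in proximal (median 85.7) and at most 471 CPM in distal sums (median 34.9) of experiments 1 and 3 to 7. Proximal was higher in 4 of 6 experiments and the ranges overlap. The log2 fold change was 0.93 ± 0.63 (unadjusted p = 0.166) and 0.71 ± 0.78 over the sets. Of 20 genes of beta-catenin and its destruction complex 5 were tested with a median of -0.11, and Cdh1, the cadherin that holds beta-catenin at junctions, was lowest at -1.22 ± 1.37.

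PRC2 subunits went in different directions. Aebp2, an accessory subunit whose gene lies at chr6:140571184-140626993 (mm9, plus strand), was the most counted of them, with 1834480 counts and a count in all 327 cells. Its level in experiments 1 and 3 to 7 was 14.4 to 62540 CPM in proximal (median 15770) and 183 to 77120 CPM in distal sums (median 17770). Distal was higher in 6 of 6 experiments, with 17670 against 17770 CPM in experiment 6 as the closest pair. In experiments 8 to 10 proximal was higher in 3 of 3, for example 27350 against 22750 CPM in experiment 9.

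The edgeR estimate for Aebp2 was -0.64 ± 0.41 (unadjusted p = 0.144), and without experiments 8 to 10 -1.35 (unadjusted p = 0.00737, adjusted p = 0.937). Over the 3 sets it was 0.00 ± 0.04 (unadjusted p = 0.986), and without experiments 8 to 10 -0.76 ± 0.41 (unadjusted p = 0.0881). Set 1 was 7459 against 7470 CPM and set 2 18130 against 18820 CPM, and experiment 7 was 3673 against 17770 CPM. These set values are weighted by depth. Within set 1, experiment 1 was 13860 against 16790 CPM and experiment 3 was also lower in proximal cells, which the summed counts barely show. The largest ratio lay in experiment 3, at 14.4 against 183 CPM with 73 and 1161 counts. Its level stayed as high in experiments 8 to 10, where stem cell markers were near 0.

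The core subunits differed by little against their spread. Ezh2, the methyltransferase, was 0.340 to 150 CPM in proximal (median 48.3) and 0.402 to 255 CPM in distal sums (median 78.0) of experiments 1 and 3 to 7, and distal was higher in 6 of 6. Suz12 was 0.340 to 169 CPM in proximal (median 67.8) and 0 to 61.9 CPM in distal sums (median 30.4), with proximal higher in 6 of 6. Both ranges overlap between positions, and both genes had 2 or fewer counts per sum in experiment 1. Of all genes tested, 2.65% were higher in distal and 2.65% in proximal cells in each of these 6 experiments.

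The log2 fold changes were -0.52 ± 0.87 for Ezh2 (unadjusted p = 0.564) and 0.93 ± 0.79 for Suz12 (unadjusted p = 0.263). Over the sets they were -1.88 ± 1.03 (unadjusted p = 0.150) and 1.13 ± 1.04 (unadjusted p = 0.345). Rbbp4, a histone-binding subunit, stood at 1.96 ± 1.42, Eed, which binds H3K27me3, at 1.58 ± 1.38, and Jarid2, an accessory subunit, at -0.08 ± 0.53. They became 2.01, -0.05 and -0.78 without experiments 8 to 10, where Eed turned its sign, and 1.34, 2.03 and -1.20 over the sets. Of 9 PRC2 genes with a row, 7 were tested and 0 passed, with a median of 0.42 that became -0.14 over 8 genes without experiments 8 to 10. Over the sets it was 0.56, or 0.40 without those experiments, with 4 of 8 positive in each. Over all genes the medians of the same fits were -0.04, -0.33, -0.06 and -0.26, in this order. Of PRC1 genes 3 of 15 were tested, all with negative estimates, from Phc1 (-0.28) to Kdm2b (-1.70), and 2 demethylases stood at 0.20 (Kdm5b) and -0.28 (Kdm1a).

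Ribosomal protein genes leaned to the proximal side by a small amount. Of 79 with a row, 77 were tested and 0 passed, 57 estimates (74.0%) were positive against 48.0% of all genes, and the median was 0.38 against -0.04. Without experiments 8 to 10, 41 of 79 (51.9%) were positive with a median of 0.01, against 39.0% and -0.33 over all genes. Over the 3 sets 38 of 79 were positive with a median of -0.04 against -0.06, and over the sets without experiments 8 to 10 55 of 79 with a median of 0.21 against -0.26. The median was thus above that of all genes by less than 0.5 in each of these fits, and by almost nothing in the 3 sets.

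Their summed level was 46520 to 142500 CPM in proximal (median 59710) and 36690 to 128200 CPM in distal sums (median 50160) of experiments 1 and 3 to 7. Proximal was higher in 5 of these 6, with experiment 6 at 55740 against 55860 CPM. In experiment 4 it was 46520 against 44460 CPM, where the normalization factors were 3.19 and 2.26, so that direction depends on the normalization. In the 3 sets it was 100100 against 88990, 55590 against 55060 and 35610 against 25810 CPM, and in experiment 7 alone 133900 against 100200 CPM. In experiment 10 it was 46940 CPM in proximal and 211 CPM in distal cells, and 99.5% of the proximal value lay on 3 genes, led by Rplp0. Among sister pairs, the proximal cell had the larger share of ribosomal protein counts in 85 of 152 pairs (55.9%), and in 43 of 74 in experiments 1 and 3 to 7.

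Rpl24 and Rpl10a, both of the large subunit, were higher in proximal cells in 9 of 9 experiments, a pattern that 0.594% of genes had. Experiments of a set share counts between same-well cells, so the 9 directions were not separate observations, which limits both counts. The top cell of Rpl24 held 45684 counts, and the same well in the rest of its set another 543. In experiments 8 to 10 distal sums held at most 2.22 CPM of Rpl24 and 1.61 CPM of Rpl10a. Rpl24 was named as the highest member of its list. Rpl24 was 417 to 2026 CPM in proximal and 5.43 to 1044 CPM in distal sums of experiments 1 and 3 to 7, and its log2 fold change was 2.26 ± 1.09 (unadjusted p = 0.0602, adjusted p = 0.999). Rpl10a was 683 to 2400 CPM in proximal and 368 to 2014 CPM in distal sums, with 1.77 ± 0.99 (unadjusted p = 0.0993). More than 50% of the Rpl24 counts (53.5%) and 42.5% of the Rpl10a counts were in 1 cell, in experiments 9 and 8. Without experiments 8 to 10 the estimates were 0.93 and 0.30, and over the sets 1.97 (unadjusted p = 0.155) and 1.45 (unadjusted p = 0.282). At the other end, Rpl21 stood at -2.66 ± 1.38, with 61.1% of its counts in 1 cell. Ribosomal protein genes have many processed copies in the genome, and how such reads were assigned can move single genes.

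Other housekeeping groups gave medians that moved with the experiments used. Of 37 proteasome subunit genes 32 were tested and 0 passed. Of these, 21 (65.6%) were positive against 48.0% of all genes, with a median of 0.92 against -0.04. The median became 0.15 without experiments 8 to 10, against -0.33 over all genes, and 0.37 over the 3 sets, against -0.06. Over the sets without experiments 8 to 10 it was 0.20 against -0.26. The ends were Psmc4, a base ATPase (3.43, with 80.3% of its counts in 1 cell), and Psmd14, a deubiquitinase of the lid (-3.08, with 67.9% in 1 cell). Of 90 nuclear genes of the respiratory chain 60 were tested and 0 passed, with 39 positive and a median of 0.37. It became -0.14 without experiments 8 to 10, above the -0.33 of all genes, with 43.1% positive against 39.0%. Over the sets it was -0.45, below the -0.06 of all genes, and over the sets without experiments 8 to 10 -0.14 against -0.26. The ends were the complex I genes Ndufa12 (4.28, with 95.1% of its counts in 1 cell) and Ndufb2 (-2.97).

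Ferritin light chain, Ftl1, which stores iron, had a higher CPM in proximal cells in 6 of 6 experiments from 1 to 7. Of all genes tested, 2.65% had this pattern. In experiment 4 it was 997 against 906 CPM, where the normalization factors were 3.19 and 2.26, so that direction depends on the normalization. Its level was 997 to 3858 CPM in proximal (median 1770) and 646 to 2590 CPM in distal sums (median 1235), and the ranges overlap. In the 3 sets it was 2762 against 1679, 1711 against 1533 and 211 against 149 CPM, with 3834 against 2590 CPM in experiment 7, higher in proximal cells in each, as in 13.0% of all genes. The log2 fold change was 0.55 ± 0.74 (unadjusted p = 0.469), and over the sets 0.45 ± 0.22 (unadjusted p = 0.122, adjusted p = 1). Fth1, the heavy chain, was also higher in proximal cells in 6 of 6, while its estimate over 9 experiments was -0.72 ± 1.52 and 53.0% of its counts were in 1 cell.

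**Figure D5:**
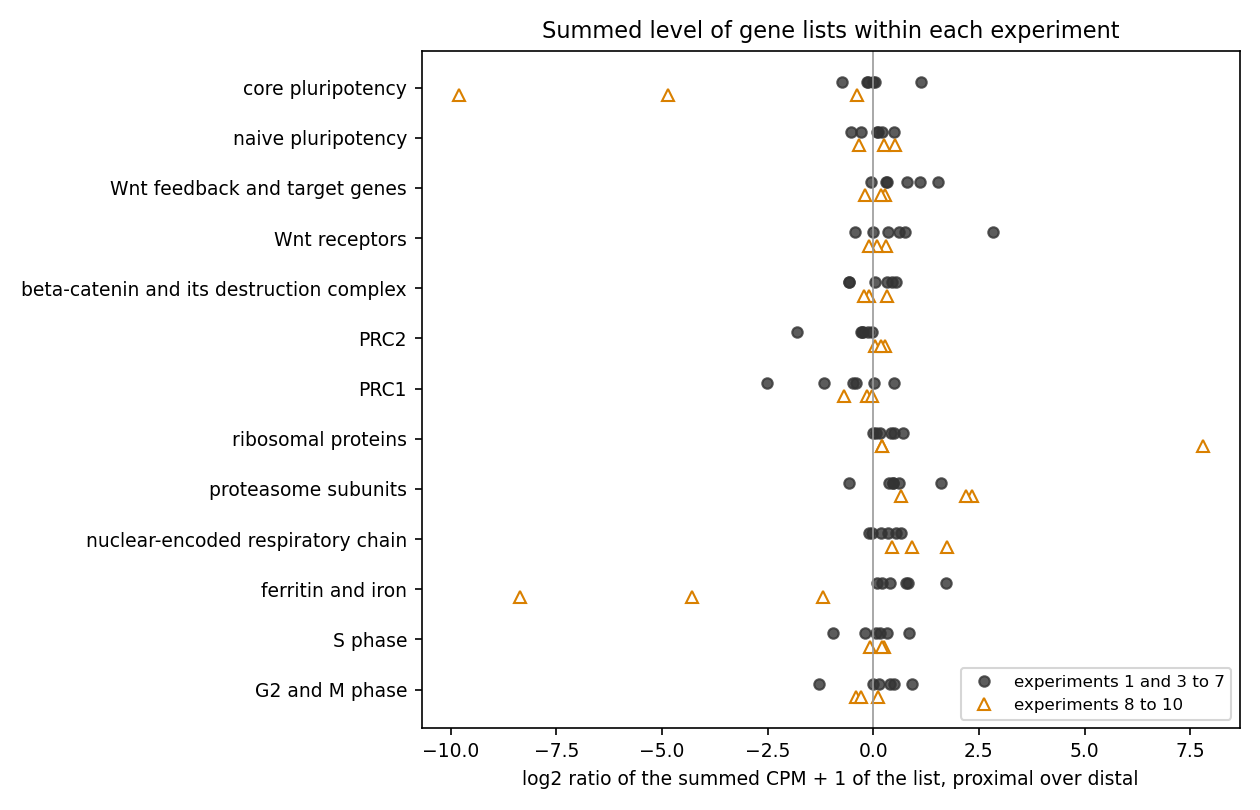
Log2 ratio, proximal over distal, of the summed CPM + 1 of 13 gene lists (rows) within each experiment, as filled circles for experiments 1 and 3 to 7 and open triangles for experiments 8 to 10. The ribosomal triangle at 7.79 is experiment 10, and in each list shown except PRC2 and ferritin and iron the circles lie on both sides of 0.

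Of 12 genes that the study plotted as markers of cell clusters, 10 were tested and 0 passed. Besides Aebp2, Ftl1 and Rpl10a, the small-subunit gene Rps4x was 794 to 3095 CPM in proximal and 565 to 2131 CPM in distal sums of experiments 1 and 3 to 7, higher in proximal cells in 5 of 6, with a log2 fold change of 0.63 ± 0.35 (unadjusted p = 0.0954). DESeq2 gave it an adjusted p of 0.0489. Over the 3 sets its estimate was -0.06 ± 0.62, and experiment 7 was 1163 against 1861 CPM. Rpl37 stood at 0.72 ± 0.43 and was higher in proximal cells in 3 of 3 sets. Cracr2a, a calcium-binding regulator (-0.17 ± 0.50), and the uncharacterised 4930438A08Rik (-0.71 ± 0.38, unadjusted p = 0.0816) reached 17540 and 42810 CPM in experiments 8 to 10. Peak1, a pseudokinase of the cytoskeleton, stood at -0.72 ± 0.91, Rnf7, a RING subunit of ubiquitin ligases, at 0.84 ± 0.96 and Ywhae, a 14-3-3 protein, at 0.03 ± 0.98. Ndufb10 and Rtl1 did not pass the filter on low counts.

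The 8 genes with the smallest p on the distal side were Eipr1, Letm1, Patz1, Mms22l, Nsmce1, Ndufs8, Cdc37 and Nsfl1c. These genes were chosen by their p, so their values are a description. Letm1, a cation exchanger of the inner mitochondrial membrane (chr5:34082322-34125366, mm9, minus strand), had 252, 327, 111, 106, 79.9 and 133 CPM in the distal sums of experiments 1, 3, 4, 5, 6 and 7. The proximal sums held 0.681, 7.92, 0, 6.50, 2.30 and 0 CPM, and no proximal sum reached any distal one. It had no count in experiments 8 to 10. The log2 fold change was -5.81 ± 1.04 (unadjusted p = 0.000315, adjusted p = 0.584), and DESeq2 gave an adjusted p of 0.00146. Over the sets it was -6.55 ± 1.65 (unadjusted p = 0.0198, adjusted p = 1). Its counts came from 11 proximal and 31 distal cells, and 27.3% were in the top cell.

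Patz1, a zinc finger transcription factor (chr11:3189134-3209086, mm9, plus strand), was at 0.275, 0.714 and 2.15 CPM in proximal and 195, 91.7 and 153 CPM in distal cells of set 1, set 2 and experiment 7. Its estimate was -5.29 ± 1.29 (unadjusted p = 0.00200, adjusted p = 0.999). Eipr1, which acts in endosomal recycling, had the lowest p of all (6.21e-05), and 96.0% of its counts were in 1 distal cell of experiment 8. Nsmce1, of the SMC5/6 complex, Mms22l, which acts at stalled replication forks, and Cdc37, a kinase co-chaperone, were lower in proximal cells in 3 of 3 sets.

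On the proximal side the 8 smallest p belonged to Nars, Pde8a, Nup98, Faf1, Vdac2, Ppil2, Tbrg1 and Mrpl10. Nars, which charges tRNA with asparagine, had 139, 70.3, 203, 45.5, 147 and 463 CPM in the proximal sums of experiments 1, 3, 4, 5, 6 and 7. The distal sums held 0, 1.57, 8.55, 22.1, 1.35 and 4.99 CPM, all under the lowest proximal value. The log2 fold change was 5.53 ± 1.23 (unadjusted p = 0.000861, adjusted p = 0.999), and DESeq2 gave an adjusted p of 0.000391. Over the sets it was 6.20 ± 0.98 (unadjusted p = 0.00428, adjusted p = 1). Its counts came from 36 proximal and 16 distal cells, with 24.8% in the top cell.

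Vdac2, an anion channel of the outer mitochondrial membrane (chr14:22650783-22665101, mm9, plus strand), was at 334, 249 and 508 CPM in proximal and 184, 45.9 and 92.7 CPM in distal cells of set 1, set 2 and experiment 7. Its log2 fold change was 2.93 ± 0.78 (unadjusted p = 0.00304, adjusted p = 0.999), and its top cell held 11.9% of the counts. Pde8a, Faf1 and Ppil2 had 97.8%, 96.2% and 96.2% of their counts in 1 cell of experiments 8 or 10. Tbrg1, a growth regulator, had 21.7% in its top cell. Nup98, a nuclear pore protein, had 69.0% and Mrpl10, of the mitochondrial ribosome, 61.2% in 1 cell.

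Lists of other lineages gave few tested genes and none that passed. Mesoderm, fibroblast, trophoblast and 2-cell-like lists had no gene tested, and the primed epiblast list 3 of 15. Of these, Dnmt3b, a DNA methyltransferase, stood at -3.08 ± 2.35, with 94.4% of its counts in 1 cell, and Nodal, a ligand of the TGF-beta family, at -0.08 ± 0.59. Fgf5 and Otx2, marks of primed cells, had 695 and 4 counts and were not tested. The 2-cell-like genes summed to 71.1 against 184 CPM in set 1 and 47.7 against 815 CPM in set 2, and in experiment 7 to 14.0 against 4.28 CPM, with 0 counts in experiments 8 to 10.

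Of 16 S phase genes 12 were tested with a median of -0.07, from Pcna, the replication clamp (1.20), to Chaf1b (-1.11). Of 18 genes of G2 and M phase 12 were tested with a median of 0.04, from Cdc20, the activator of the anaphase complex (1.46), to Ube2c (-2.13 ± 0.92, unadjusted p = 0.0383). No gene of either list passed, and over the sets Ube2c had an unadjusted p of 0.129, or 0.0703 without experiments 8 to 10. The medians became -0.67 and -0.66 without experiments 8 to 10, -0.59 and -0.46 over the sets, and -0.08 and -0.67 over the sets without them. Over all genes the medians of these fits were -0.33, -0.06 and -0.26, in the same order. Ionotropic glutamate receptor genes, which span long introns, had 11 of 16 members tested with a median of -0.33. It became -0.85 with 0 of 10 positive without experiments 8 to 10, where 39.0% of all genes were positive. It was -0.01 over the 3 sets, and -0.62 with 2 of 12 positive over the sets without experiments 8 to 10. In the remaining lists 2 or 3 genes each were tested and 0 passed. Of the LIF and STAT3 list 2 of 8 were tested, Klf4 and Tfcp2l1, a naive transcription factor at 0.00. BMP and Id genes ran from Smad7, an inhibitor of the pathway (0.37), to Id1 (-0.88), and genes of FGF and ERK feedback from Etv5 (0.69) to Fosl1 (-0.64). Stress genes ran from Atf4 (1.24) to Dnajb1 (-0.15), neuroectoderm genes from Pax3 (0.56) to Map2 (0.37) and primitive endoderm genes from Lama1 (-0.09) to Cubn (-0.24). In the list of G1 cyclins and CDK inhibitors only the kinases Cdk4 (0.75) and Cdk6 (0.44) were tested, and no cyclin or inhibitor. Tfrc, the transferrin receptor, was the highest of the iron list at 1.42. Genes over 100 kb took 9.2% to 55.5% of the counts in sums of experiments 1 and 3 to 7 and 38.6% to 55.7% in experiments 8 to 10.

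The same comparison in the cells that received the H3K4me3 antibody gave no gene past the test either, and no gene passed the test of the difference between the antibodies. In 5 H3K4me3 experiments, edgeR called 0 of 4734 genes, with 235 at an unadjusted p below 0.05 (4.96%). The term for position by antibody over 14 experiments called 0 of 4842, with 239 at an unadjusted p below 0.05 (4.94%), while DESeq2 called 50 (1.03%). Same-well cells shared counts there too, with a median r of 0.12 to 0.27 in 9 pairs of experiments. Directly or through another experiment, this links all of the H3K4me3 experiments into 1 set. The p-values of both fits treat these experiments as independent. In 5 other pairs with shared wells r was -0.0072 to 0.068, and experiment 6 was linked only through experiment 5 (r of 0.12 over 9 pairs of cells).

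In those cells the genes chosen by their p did not stand out. Letm1 had a log2 fold change of -1.09 (unadjusted p = 0.398), Patz1 -0.46 (0.664), Nars 1.29 (0.166) and Vdac2 -0.23 (0.784), by the edgeR fit. The signs of the first 3 were those of the H3K27me3 cells and the sign of Vdac2 was not, and the term for position by antibody gave all 4 an adjusted p of 0.937. Nanog was at -0.15 (unadjusted p = 0.839) and Zfp42 at 0.64 (0.349). Ribosomal protein genes summed to more in distal cells in 5 of 5 H3K4me3 experiments, for example 117550 CPM in proximal and 147860 CPM in distal cells of experiment 2. The H3K4me3 experiments form 1 set with shared counts, so the 5 directions were not separate observations. The fitted estimates of ribosomal protein genes there had a median of 0.03 with 43 of 77 positive, against 0.07 over all genes.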

How the data were processed

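Gene counts per cell were deposited by the authors as whole-number tables, with no molecular identifiers, so PCR copies were counted. Per the methods of the study, zUMIs counted exonic and intronic reads on mm9 without mitochondrial and random chromosomes. The submitters' processing notes name STAR 2.5.4b, featureCounts 2.0.0, Trim Galore 0.6.4 and Seurat 3.2.1. Strandedness was not given in the sources used here.

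Cells with more than 1000 and fewer than 5000 genes were summed per experiment and position (3 or more cells), without a doublet call (cells were placed in wells by hand). edgeR 4.0.16 (R 4.3.3) was run with TMM, filterByExpr and the experiment as a block, with Benjamini-Hochberg adjustment at 0.05. The experiment is the block because both positions of an experiment were processed together. DESeq2 1.42.0 and limma 3.58.1 were alternatives. CPM scales each sum to 1000000 counts, without the TMM factors and with a pseudocount of 1 where logged. The scripts were tested on simulated data. Nothing in the labels says that experiments were separate cultures, so p-values measure the spread between experiments only.

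Sets of experiments that share counts were defined, after seeing the data, by a median same-well r above 0.1. Named genes were those called, otherwise the 8 smallest p in each direction, the fixed list of 35 genes (34 in the table, 23 tested) and the ends of 28 gene lists. The members and lists were chosen with earlier results of these data known. Coordinates came from gene models (mm9) in the bulk tables of the series. Ash2l was named after its values were seen, and counts by direction or by share in 1 cell are descriptions.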

Additional observations from a re-analysis of the deposited data

Results flagged for a closer look

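In 33 series of differences between positions over 9 experiments, 12 values lay far from the others of their series by Dixon's test, where chance gives about 1 in 20 series. They are log2 ratios of CPM + 1, proximal over distal. In experiments 8 to 10 these were the summed ribosomal protein genes (7.79, experiment 10), Peak1 (-11.05), Cracr2a (3.42) and 4930438A08Rik (-3.67) in experiment 10, and Rpl10a (10.79) in experiment 8. In the other experiments these were the summed PRC2 genes (-1.80) and Ctnnb1 (2.98) in experiment 7, Esrrb (-5.45) in experiment 4, Ezh2 (-3.37) and Jarid2 (-2.72) in experiment 6, Suz12 (2.94) in experiment 3 and Rnf7 (-7.71) in experiment 1.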

How the results depend on the processing

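The count of 0 genes held under edgeR with DESeq2 size factors, with at least 5 cells per sum, with cells of 5000 or more genes kept, with neighbouring wells that both pass, with cells thinned to 20000 counts, under limma, without each experiment in turn (0 to 0), and, chosen after seeing the data, without experiments 8 to 10 and over 3 sets of experiments. Without the replicate block it was also 0, with 217 genes at an unadjusted p below 0.05, and the block changed no call. It was 58 with DESeq2, 11 of 17051 with no filter on low counts (all 11 with over 50% of their counts in 1 cell), 1 in experiments 8 to 10 alone and 385 with DESeq2 over the sets. For position by antibody the count of 0 became 50 with DESeq2 and 4 with no filter, and stayed 0 without the block.

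Of the values with no call, log2 counts per cell turned to 0.16 and log2 genes per cell to 0.095 in experiments 8 to 10 alone. The share of cells within the limits turned to -1.39 points without experiments 8 to 10 and ranged from -0.52 to 2.60 points without single experiments. Rn45s turned to 0.060 points with all 10 experiments and to 0.22 without experiments 8 to 10, and ranged from -0.33 to 0.26 points. Leaving out 1 experiment gave -0.15 to -0.033 for log2 counts and -0.15 to -0.060 for log2 genes. The cause was not tested. Leaving out experiments 8 to 10 moved the median of all genes from -0.04 to -0.33 on the log2 scale. Axin2 had 16 counts in all, at which no difference was detectable.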
